A study of Papio anubis with 40 samples.

Results

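The microRNAs described here are those whose registry number is 1000 or more and whose counts summed to 100 or more over 40 plasma libraries of olive baboons (Papio anubis). Of the 2731 rows of the count table, 1794 carried such a number once rows of miR-1185, miR-1193, miR-1197, miR-1246, miR-1260, miR-1290, miR-1291, miR-1307, miR-3613, miR-4286 and miR-4676 had been left out. No count was found for 1624 of these in any library, 117 had a total of 1 to 99, and the remaining 53 are the members. The total count chose them, so their being above 100 is no result. Just inside that limit lay miR-6812-5p with 127 counts, miR-4667-5p with 126 and miR-1271-5p with 111, and just outside it miR-6740-5p with 98, miR-4749-3p with 97 and miR-4701-3p with 84.

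MicroRNAs are short RNAs that Drosha and Dicer cut from hairpins and that guide Argonaute proteins to partly matching messenger RNAs. The registry numbers them in order of report, so the long-studied microRNAs carry low numbers, and high numbers come mostly from later deep sequencing. Many high-numbered entries have been reported only in primates, are weakly expressed, and are debated as genuine microRNAs. Some are mirtrons, which are hairpins freed from short introns by splicing in place of Drosha, and some overlap other small RNAs such as tRNA. The table names its rows by their human names and says nothing of their age, so that these are young primate microRNAs was not measured here. By a grouping drawn from general knowledge, 6 members carry names also used in mouse (miR-1306-5p, miR-1843, miR-1224-5p, miR-3064-5p, miR-1249-3p and miR-1247-5p), and they held 6.79% of the members' counts. That list may not be complete, so other members may also carry names used outside primates. By the same grouping miR-1224-5p is also 1 of 2 mirtrons, the other being miR-1226-3p.

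The 40 libraries came from 8 baboons, each bled before inoculation (month 0) and 3, 6, 9 and 15 months after menstrual tissue had been placed in the peritoneal cavity to induce endometriosis, with 8 libraries at each month. The animals were PA8001, PA8003, PA8835, PA8872, PA8873, PA8912, PA8914 and PA8915, and the label for treatment reads the same, no treatment, for all of them. Each library was made from 0.5 mL of plasma per the sample labels, although the description of the whole study mentions serum. Uninoculated animals are not among these samples, so time since inoculation, age and storage of the samples cannot be told apart. Within each animal the libraries were numbered in month order, so month and position in that order cannot be told apart either. Library depth, as the sum of counts, lay between 696873 and 5824111 (median 1629264.5). Levels are given as CPM, which sets each count over its library's size after TMM factors have adjusted for composition. Where a row had no count, its level may still have been as high as 3 counts, or 0.374 to 3.97 CPM by library, a limit that covers counting error only. No count of 1 occurs anywhere in the table: the lowest value above 0 is 2. If counts of 1 had been set to 0, the limit of 3 counts would be too low. Known plasma markers were present throughout, with 5 of 6 erythrocyte, 5 of 5 platelet, 3 of 4 liver and 3 of 3 lymphocyte microRNAs above 0 in all 40 libraries. Plasma pools RNA from many cell types, so fewer contributing cells and less RNA per cell cannot be told apart.

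Together the members held 101188 counts, which was 0.133% of all counts, against 99.8% for the 327 rows with a number under 1000 (let-7 included) that also had a total of 100 or more. A member had a count in a median of 24.0 of the 40 libraries, and a low-numbered row in a median of 40.0. All 40 libraries held a count of 6 members (11.3%) and of 181 low-numbered rows (55.4%). Fewer libraries, 20 or less, held a count of 21 members (39.6%) and of 37 low-numbered rows (11.3%). The median total was 302.0 counts for members and 2492.0 for low-numbered rows, and the median of the mean level was 4.131 CPM for members and 32.28 CPM for low-numbered rows. These figures are a description, since members were picked by name and total. Of the 2120 member values (53 members in 40 libraries), 796 (37.5%) were 0. The plot of member counts shows that the 0 values grow common below the most abundant members.

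**Figure D1:**
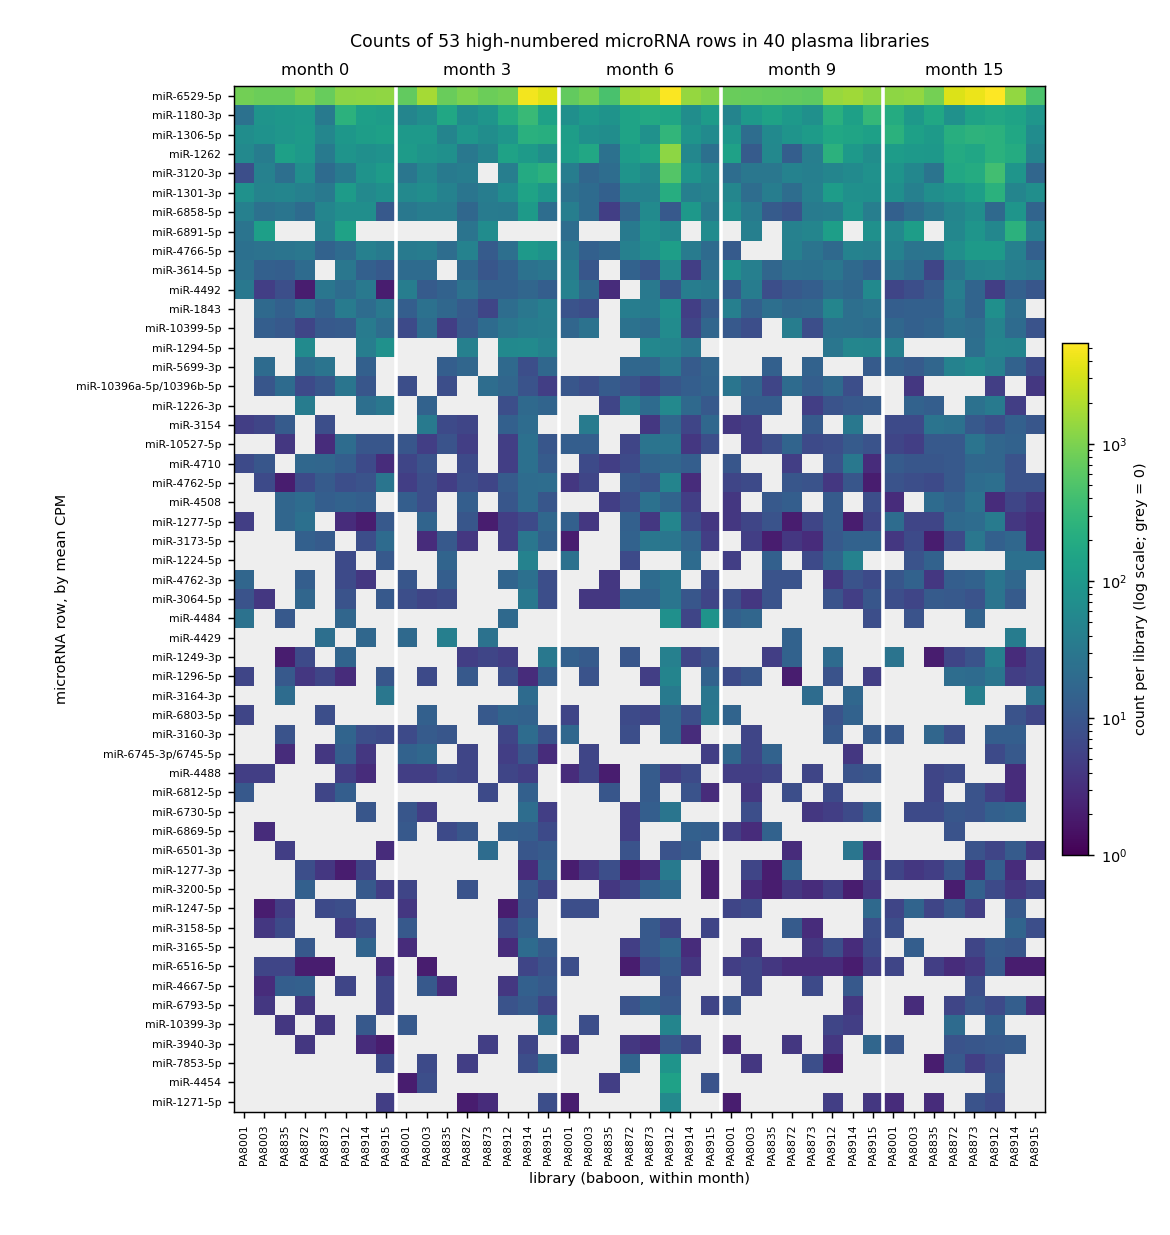
Counts of the 53 members (rows, ordered by mean CPM) in the 40 libraries (columns, by baboon within month); colour gives the count on a log scale and grey marks 0. miR-6529-5p is bright in every column, while many of the lower rows are grey in most columns.

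A single row carried most of this signal. miR-6529-5p had 61774 counts, 61.05% of all member counts, and between 46.8% and 72.5% of them in each library. Its level over the 40 libraries was 427 at the lowest, 692 at the median and 1430 CPM at the highest (mean 781 ± 283, SD). The next member averaged 73.7 CPM.

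Next came 3 members detected in all 40 libraries. miR-1180-3p was at 19.5, 70.1 and 147 CPM (lowest, median and highest; mean 73.7 ± 30.5). miR-1306-5p, whose hairpin in human lies in the messenger RNA of DGCR8, the partner of Drosha, was at 19.4, 67.5 and 119 CPM (mean 68.1 ± 20.1). miR-1262 was at 10.6, 52.1 and 157 CPM (mean 59.3 ± 33.4). The ranges of these 3 overlap almost wholly, so no order among them is given.

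Members ranked 5 to 10 by mean level had means between 13.5 and 36.5 CPM. The lower end of this range is where the naming rule stops and not a gap in level. miR-3120-3p, transcribed in human opposite miR-214 in an intron of the dynamin gene DNM3, was at 0, 32.2 and 96.6 CPM and was missing from 1 library. miR-1301-3p, encoded in human in an intron of the DNA methyltransferase gene DNMT3A, was at 15.8, 33.5 and 96.3 CPM, with a count in every library. miR-6858-5p was also found in all 40, at 1.37, 19.7 and 91.0 CPM. Between these rows the ranges overlap as well. miR-4766-5p was at 0, 19.5 and 45.5 CPM, with a count in 38 libraries. miR-3614-5p, which in human lies at the end of the messenger RNA of the antiviral ubiquitin ligase TRIM25, was at 0, 10.6 and 54.0 CPM, with a count in 37. miR-6891-5p, ranked 8 by mean level, is described next. The other 43 members had mean levels from 0.786 CPM (miR-1271-5p) to 13.1 CPM (miR-4492).

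Some members were either absent or well above the lowest counts. miR-6891-5p, which in human is encoded in an intron of HLA-B, a class I gene of the major histocompatibility complex, had no count in 17 libraries and 22 to 255 counts (median 55) in the other 23. miR-1294-5p had no count in 23 libraries and 23 to 79 counts in the rest. The same held for miR-4429, which shares its seed with the miR-320 family, at 0 in 33 libraries and 15 to 41 elsewhere, and for miR-3164-3p, at 0 in 31 and 18 to 41 elsewhere. Of the 40 members with a count in 5 to 35 libraries, these 4 (10.0%) had no value between 0 and 10 counts. Among low-numbered rows with a count in 5 to 35 libraries the share was 7 of 100 (7.0%). The difference between these shares was not tested.

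In other members a single library gave much of the total. miR-4454, whose name overlaps a histidine tRNA, had 139 of its 173 counts in the month 6 library of PA8912 and a count in only 6 libraries. That library also held 58 of the 111 counts of miR-1271-5p, which shares its seed with miR-96, 87 of the 188 of miR-7853-5p and 50 of the 154 of miR-10399-3p. miR-4484 had 84 of its 300 counts in the month 6 library of PA8915. The PA8912 library was the deepest of all, with 5824111 counts (7.65% of the study) and 9.12% of the member counts. By count it was the highest library for 21 members, but after scaling to CPM for only 4. Without it 51 of the 53 members would still reach 100 counts, miR-1271-5p and miR-4454 being the others. At least 25% of the total lay in 1 library for 5 members (9.43%) and 40 low-numbered rows (12.2%).

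Both arms of 3 hairpins were members. The hairpin of miR-4762 gave 386 counts of its 5p arm and 312 of its 3p arm, and every library held at least 1 of the arms. For miR-1277 the 5p arm had 381 counts and the 3p arm 164, with both in 22 libraries. For miR-10399 the 5p arm had 761 counts in 37 libraries and the 3p arm 154 in 11, and each library with the 3p arm also held the 5p arm. The 5p arm had the higher total in all 3, by 1.24, 2.32 and 4.94 times for miR-4762, miR-1277 and miR-10399. Among all members 29 rows were 5p arms, 13 were 3p arms, 1 joined both arms and 10 had no arm in their name.

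The groups by origin held few of the counts. The mirtrons miR-1226-3p (from the helicase gene DHX30 in human) and miR-1224-5p had 456 and 290 counts, in 24 and 16 libraries. Numbers in the range from miR-6730-5p to miR-6891-5p, many of which were catalogued as mirtron candidates, gave 8 members with 4203 counts, 4.15% of the member total, and most of those counts came from miR-6891-5p (1692) and miR-6858-5p (1568). Besides miR-1306-5p, the names shared with mouse ran from 908 counts for miR-1843 in 37 libraries to 140 for miR-1247-5p, which in human lies beside the deiodinase gene DIO3, in 18. miR-3064-5p, from the helicase gene DDX5, had 324 counts in 30 libraries.

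Between 20 and 47 members (median 32) had a count in any given library. By month, the lowest, median and highest were 21, 31 and 34 at month 0, 22, 31 and 46 at month 3, 20, 35.5 and 47 at month 6, 27, 33 and 38 at month 9, and 29, 35.5 and 44 at month 15. Libraries of later months were also deeper: the median total count was 1315968 at month 0, 1560903.5 at month 3, 1635318.5 at month 6, 1775616.5 at month 9 and 1887462 at month 15. The 2 libraries with the most members, 47 and 46, were the 2 deepest. After thinning every library to 696873 counts, the lowest, median and highest were 21, 30 and 32 at month 0, 22, 30.5 and 40 at month 3, 20, 34 and 40 at month 6, 27, 32.5 and 36 at month 9, and 29, 34 and 42 at month 15. Months 6 and 15 thus had the same median. The thinned number was higher than at month 0 in 5 baboons at month 3, 6 at month 6, 6 at month 9 and 7 at month 15. A thinned row counted as detected at any value above 0, whereas the lowest deposited value above 0 is 2. Thinning may therefore still favour the deeper libraries. The groups overlap, and no test was made on the number detected.

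**Figure D2:**
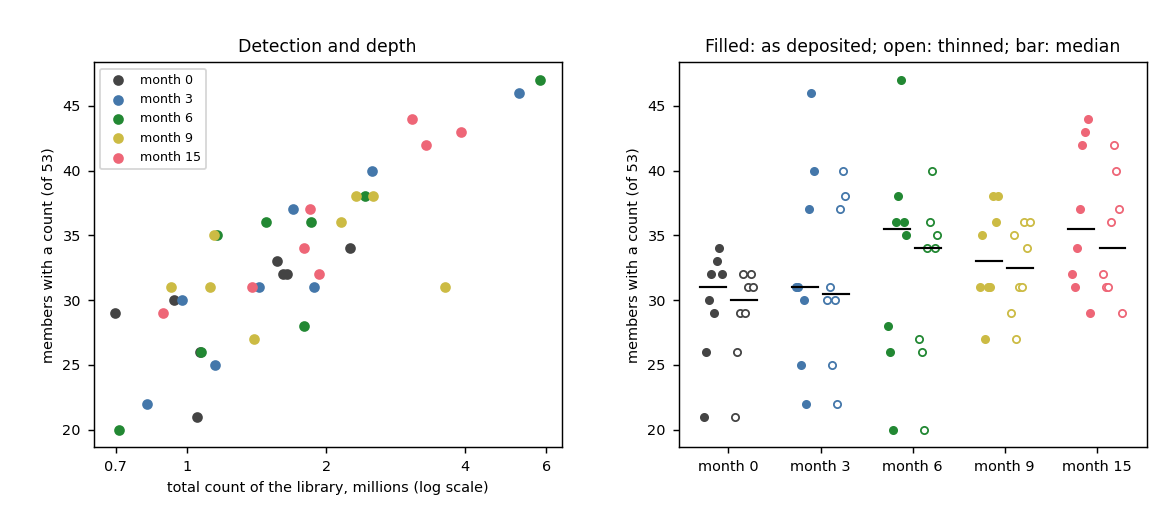
Left, members with a count (of 53) against the total count of each of the 40 libraries (log axis), coloured by month; right, the same number by month as deposited (filled) and after thinning to 696873 counts (open), with bars at medians. The 2 deepest libraries held the most members, and after thinning the medians of months 0, 3, 6, 9 and 15 were 30, 30.5, 34, 32.5 and 34.

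The members' share of all counts ran from 0.0409% to 0.260% with a median of 0.127%. The lowest share, 0.0409% (exact 95% interval 0.0388% to 0.0430%), was in the month 9 library of PA8001, where the liver microRNA miR-122-5p took 78.6% of the counts. The highest, 0.260% (0.253% to 0.267%), was in the month 15 library of PA8872, where miR-122-5p took 0.467%. With miR-122-5p taken out of the totals the shares ran from 0.0986% to 0.275%. In the libraries of PA8001 and PA8872 just named they were 0.191% and 0.261%. The haemolysis index, log2 CPM of miR-451a minus that of miR-23a-3p, was -1.915 in that PA8001 library. In that PA8872 library it was -3.43, the lowest of all 40 libraries. miR-122-5p took least, 0.307%, in the month 6 library of PA8912, where the members' share of all counts was 0.1585%. The part of miR-122-5p or of red cell RNA in these shares was not tested. Monthly medians were 0.135% at month 0, 0.127% at month 3, 0.139% at month 6, 0.112% at month 9 and 0.140% at month 15.

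Change with time was tested row by row, as each month against month 0 within baboons. Only 30 of the 53 members had enough counts to be tested, against 281 of the 327 low-numbered rows. The other 23 members were not tested for change. No tested member passed an adjusted p of 0.05 at any month by the quasi-likelihood F test of edgeR, with p-values adjusted over all 318 rows tested. At month 3 that was 0 of 30 members, beside 0.0% of all rows. At month 6 it was also 0 of 30, beside 0.0% of all rows, and at month 9 it was 0 of 30, beside 0.0% of all rows. At month 15, 0 of 30 members passed, beside 4.09% of all rows (13 of 318). In the test of any month 0 of 30 passed, beside 0.943% of all rows, and for months 9 and 15 against months 3 and 6 it was 0 of 30, beside 0.0% of all rows.

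Unadjusted p-values under 0.05 were found for 0 members at month 3, 2 at month 6, 0 at month 9, 1 at month 15, 2 for any month and 1 for late against early months. The shares of the 30 members were 0.0%, 6.67%, 0.0%, 3.33%, 6.67% and 3.33% in that order, beside 1.57%, 3.46%, 3.46%, 12.6%, 9.12% and 5.03% of all rows. The limma-voom fit called 0 members in each of these 6 comparisons, and DESeq2 called 1 of 30, at month 15, where it called 18 of all 318 rows. Without a filter on low counts edgeR called 2 of 53 members for any month (miR-4429 and miR-6891-5p) and 1 for late against early months (miR-6891-5p), beside 15 and 3 of all 689 rows. Median log2 fold changes of the 30 members were 0.05 at month 3, 0.08 at month 6, -0.08 at month 9 and 0.23 at month 15. Over all tested rows the medians were 0.08, 0.10, 0.05 and 0.11. The sign of the members' median turned with the scaling at month 3, where it was -0.03 under DESeq2 size factors, -0.02 under upper-quartile scaling and -0.14 when only library totals were used. At month 6 it was -0.07 under library totals. At month 15, 20 members lay above 0 and 10 below, but with DESeq2 size factors the split was 16 to 14 and the median 0.10, beside 0.00 for all rows. At month 9 the split was 14 above and 16 below, and with library totals alone it was 8 to 22, with medians of -0.39 for members and -0.28 for all rows. The comparisons with month 0 share the same 8 libraries.

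**Figure D3:**
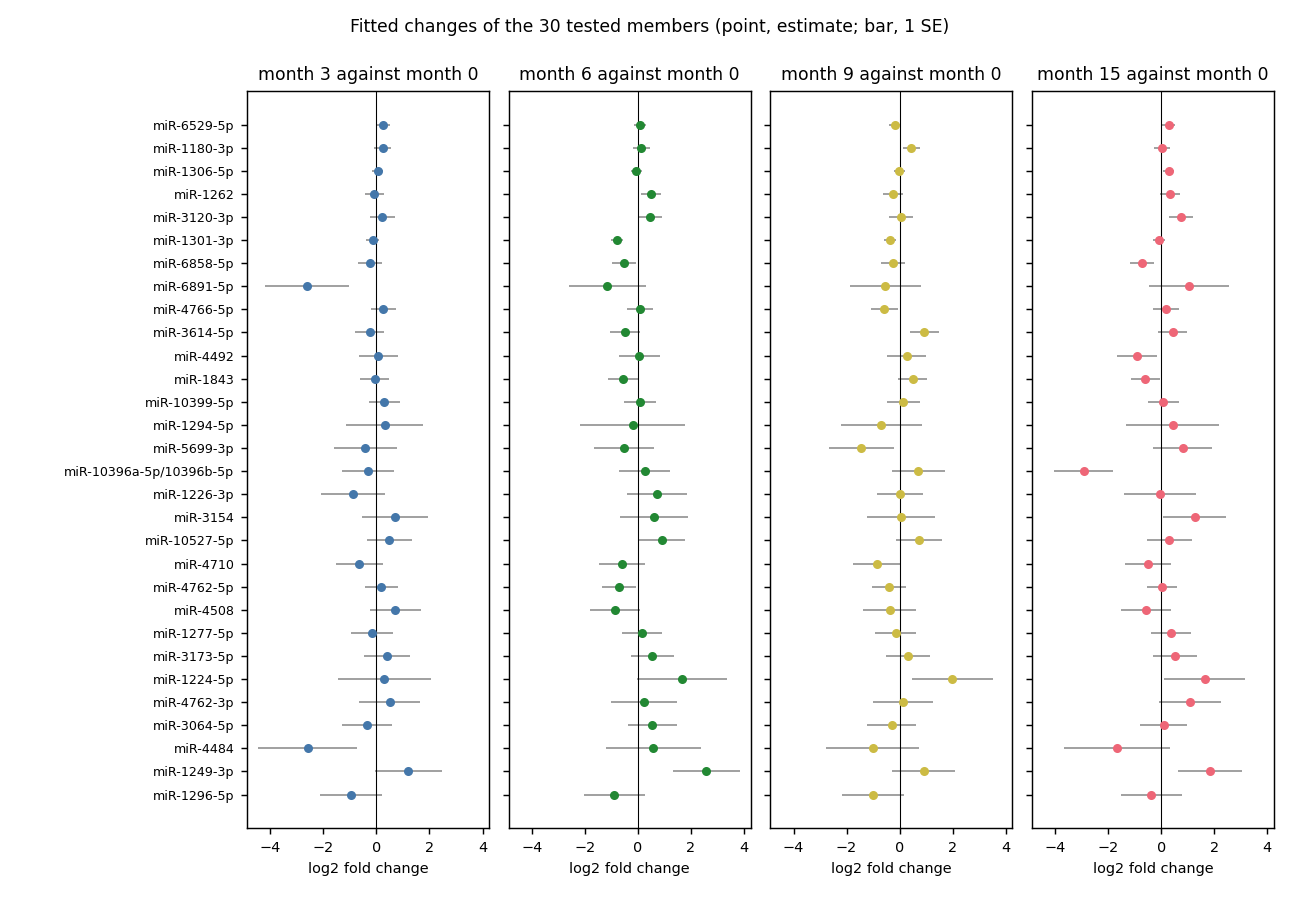
Fitted log2 fold changes of the 30 tested members (rows, by mean CPM) at months 3, 6, 9 and 15 against month 0; points are estimates and bars 1 standard error. Errors widen down the page, and no member passed an adjusted p of 0.05 in these 4 comparisons.

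The intervals show how large a change these data leave possible. For miR-6529-5p the libraries stood at 427, 752 and 1430 CPM at month 15 (lowest, median and highest), against 543, 623 and 1099 CPM at month 0. It was higher at month 15 in 4 of 8 baboons, and the ranges overlap. The log2 fold change was 0.28 (SE 0.23, 95% interval -0.20 to 0.75; adjusted p = 0.618 by edgeR), so a 2-fold change lies outside the interval. The intervals at month 15 stayed within 2-fold either way for 4 of 30 members, the others being miR-1180-3p, miR-1301-3p and miR-1306-5p. That number was 5 at month 3, 3 at month 6 and 4 at month 9. For the remaining members a 2-fold change in at least 1 direction was inside the interval at the month in question.

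miR-1180-3p was at 37.0, 84.1 and 135 CPM at month 9, against 31.3, 60.3 and 124 CPM at month 0. It was higher in 7 of 8 baboons, but the ranges of the months overlap and the log2 fold change of 0.44 (SE 0.31) did not pass (adjusted p = 0.9998 by edgeR). miR-1306-5p was at 58.0, 82.7 and 119 CPM at month 15, against 46.4, 64.8 and 86.3 CPM at month 0, and higher in 6 of 8 baboons. Its log2 fold change was 0.28 (SE 0.21, 95% interval -0.15 to 0.70). miR-1262 was at 14.6, 70.7 and 157 CPM at month 6, against 27.7, 41.7 and 106 CPM at month 0. The month 6 libraries spread on both sides of the month 0 range, and the log2 fold change was 0.50 (SE 0.38; adjusted p = 0.990 by edgeR). Without the month 6 library of PA8912, which held 24.9% of its 5059 counts, it was 0.30.

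miR-1301-3p had the smallest unadjusted p among members at month 6. It was at 15.8, 23.3 and 38.5 CPM there, against 21.5, 37.4 and 96.3 CPM at month 0, and lower in 7 of 8 baboons. The log2 fold change was -0.80 (SE 0.23; adjusted p = 0.528 by edgeR). At month 9 it was at 19.4, 33.0 and 44.6 CPM (log2 fold change -0.37, SE 0.23), and at month 15 at 25.4, 36.7 and 63.2 CPM (log2 fold change -0.08, 95% interval -0.54 to 0.39). The month 15 median was close to that of month 0.

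**Figure D4:**
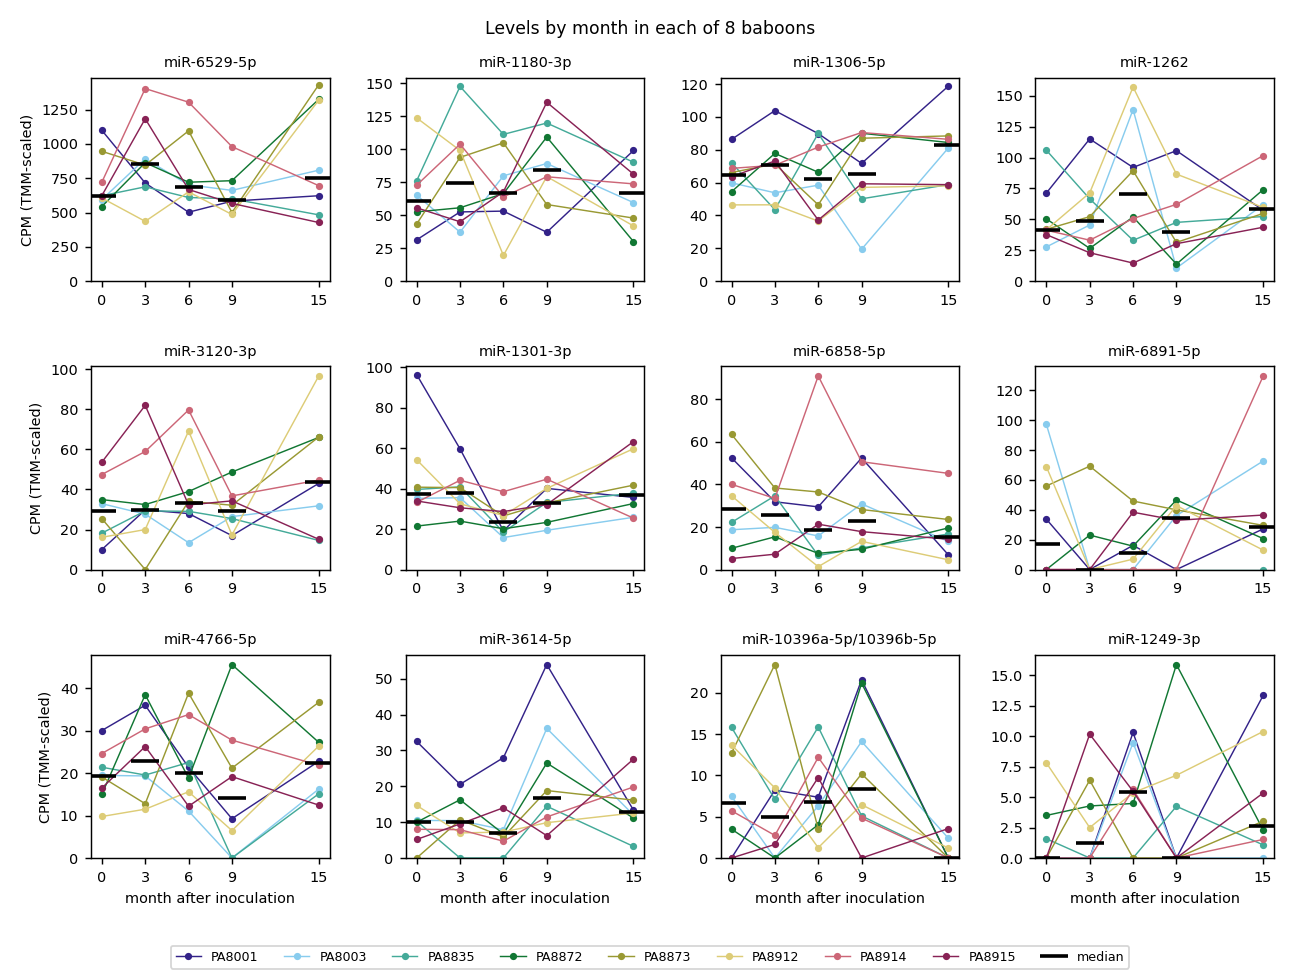
CPM (TMM-scaled) of 12 members by month after inoculation, one line per baboon, with bars at the median of the 8 libraries. Lines cross in every panel, and in the panel of miR-10396a-5p/10396b-5p 5 of the 8 libraries lie at 0 at month 15.

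The row that joins miR-10396a-5p and miR-10396b-5p came nearest to the threshold at month 15. Its counts there were 0 in 5 libraries and 4, 5 and 4 in those of PA8003, PA8912 and PA8915, 13 in all. At month 0 they were 0 in 2 libraries and 7 to 28 in the other 6, 85 in all. At months 3, 6 and 9 the row had a count in 6, 8 and 7 libraries, with totals of 69, 84 and 110. In CPM it stood at 0, 0 and 3.56 at month 15, against 0, 6.60 and 15.8 at month 0, and it was lower in 6 baboons, higher in 1 and equal in 1. The fitted log2 fold change was -2.93 (SE 1.12; unadjusted p = 0.0134, adjusted p = 0.203 by edgeR), and a fitted value on such low counts depends on the prior count. It passed with DESeq2 (adjusted p = 0.0306) and without PA8915 (adjusted p = 0.0209 by edgeR), and over all 20 alternatives the adjusted p ran from 0.0209 to 0.516. The summed level of the 5 platelet markers was 73890, 113400 and 177000 CPM at month 15, against 61780, 70910 and 118900 CPM at month 0. The erythrocyte markers summed to 97510, 289200 and 654200 CPM at month 15, against 196300, 250500 and 544100 CPM at month 0. The median haemolysis index was -0.859 at month 15 and -0.287 at month 0. Medians at months 15 and 0 were 51640 and 27950 CPM for the liver markers. For the lymphocyte markers they were 1848 and 2629 CPM. The ranges of both months overlap for every list. The part of these differences in this result was not tested.

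Next by p at month 15 were a pair of members that did not pass. miR-3120-3p was at 14.6, 43.9 and 96.6 CPM, against 10.0, 29.2 and 53.6 CPM at month 0, with 4 baboons higher and 4 lower (log2 fold change 0.75, SE 0.46). miR-6858-5p was at 4.59, 15.5 and 45.2 CPM, against 5.18, 28.4 and 63.6 CPM at month 0, with 5 baboons lower and 3 higher (log2 fold change -0.73, SE 0.46). For both the adjusted p was 0.517 by edgeR.

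miR-1249-3p, a name shared with mouse, was at 0, 5.42 and 10.3 CPM at month 6, against 0, 0 and 7.82 CPM at month 0. It was higher in 5 baboons, lower in 2 and equal in 1 (log2 fold change 2.57, SE 1.26; unadjusted p = 0.0496, adjusted p = 0.990 by edgeR). The log2 fold change ran from 1.10 (limma-voom) to 3.46 (without PA8912) over its alternatives, and was 1.78 without PA8003. miR-4484 had a count in 1 library at month 3, of 19, against 3 libraries at month 0 with at most 26. Both rows hold so few counts that most of their libraries lie at or near the limit of detection.

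miR-3614-5p had the smallest p among members for late against early months. At months 9 and 15 it was at 3.24, 13.9 and 54.0 CPM, against 0, 7.90 and 28.0 CPM at months 3 and 6. Its mean was higher late than early in 8 of 8 baboons, although the libraries overlap. The log2 fold change was 1.05 (SE 0.38; unadjusted p = 0.0100, adjusted p = 0.532 by edgeR). At month 9 alone it was at 6.24, 16.6 and 54.0 CPM, against 0, 10.1 and 32.5 CPM at month 0, and higher in 7 of 8 baboons (log2 fold change 0.92, SE 0.55).

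miR-6891-5p had a count in 4 libraries at month 0, 2 at month 3, 5 at month 6, 5 at month 9 and 7 at month 15. At months 9 and 15 it was at 0, 31.3 and 130 CPM, against 0, 0 and 69.2 CPM at months 3 and 6, and higher late in 6 baboons and lower in 1. The log2 fold change was 2.15 (SE 1.07; adjusted p = 0.985 by edgeR), and it passed in 1 of 22 alternatives, the one with no filter on low counts (adjusted p = 0.0123), while the others reached up to 0.997. By animal, all 5 libraries of PA8873 had it, none of the 5 of PA8835 did, and in PA8914 it was found in 1 library alone, at month 15, with 255 counts.

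Differences between animals were tested in the same fit over all 7 baboon terms. Of the 30 members 1 passed, beside 32.4% of all rows (103 of 318), and 5 had an unadjusted p under 0.05, against 136 of all rows. The shares also went with level: of rows with a mean of 50 CPM or more, 0 of 4 members and 85 of 154 other rows (55.2%) passed, and of rows under 50 CPM, 1 of 26 members (3.85%) and 17 of 134 other rows (12.7%). The difference between these shares was not tested. The member that passed was miR-6858-5p (adjusted p = 0.0113 by edgeR).

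By baboon, over 5 libraries each, miR-6858-5p had its highest median in PA8914 at 45.2 CPM (33.4 to 91.0), followed by PA8873 at 36.5 (23.5 to 63.6) and PA8001 at 31.9 (6.92 to 52.5). The lowest medians were 9.99 CPM in PA8872 (7.61 to 19.6) and 13.3 CPM in PA8912 (1.37 to 34.7). All 5 libraries of PA8914 lay above all 5 of PA8872, while most neighbours in this order overlap. The call was lost without PA8914 (adjusted p = 0.121 by edgeR) and with library totals in place of TMM (adjusted p = 0.191), and it held in 18 of 20 alternatives.

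The next members by p between baboons did not pass. miR-1306-5p ran from a median of 46.5 CPM in PA8912 (36.5 to 58.0) to 89.8 CPM in PA8001 (71.7 to 119), 2 sets of libraries that do not overlap (adjusted p = 0.0628 by edgeR, passing in 11 of 20 alternatives). miR-1294-5p had a count in 5 of 5 libraries of PA8914, 4 of PA8912, 3 of PA8915, 2 each of PA8872 and PA8873, 1 of PA8001 and 0 of PA8003 and PA8835 (adjusted p = 0.0735 by edgeR, passing in 5 of 20 alternatives). For miR-1301-3p the adjusted p was 0.0967 and for miR-1262 it was 0.107, both by edgeR, and they passed in 0 and 1 of 20 alternatives. The libraries were numbered animal by animal, so a difference between animals cannot be told apart from one by position in that order.

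**Figure D5:**
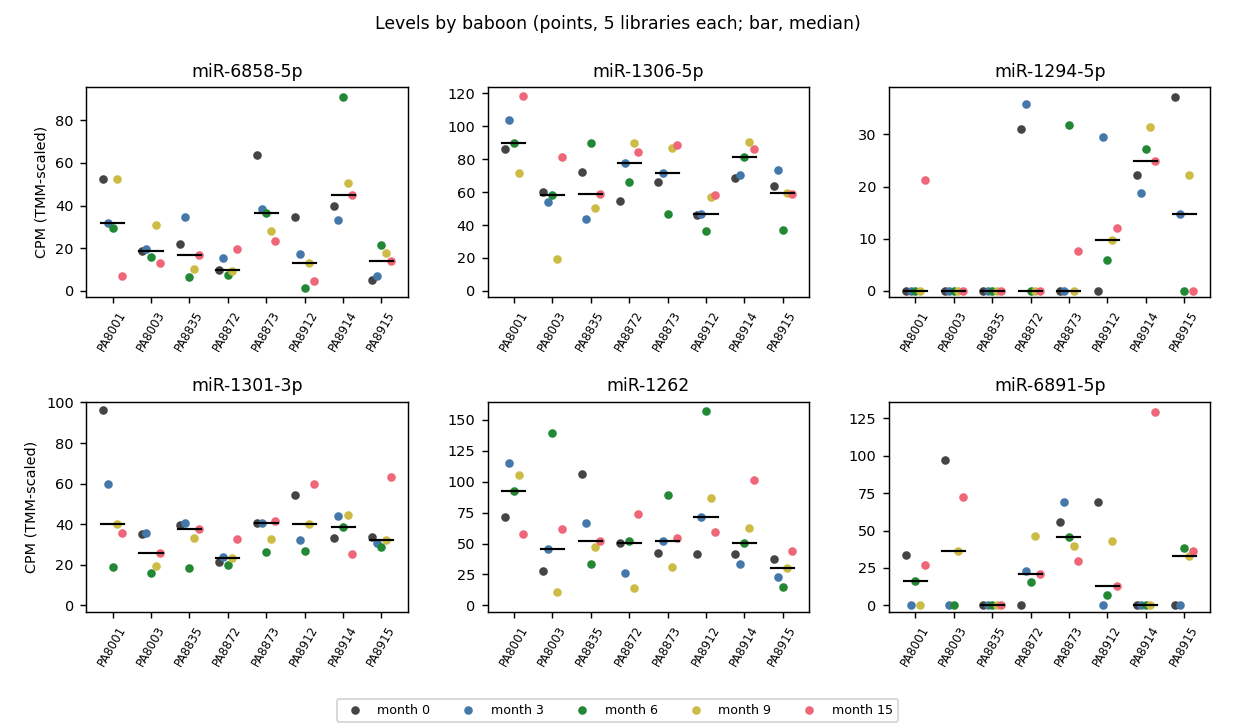
CPM (TMM-scaled) of 6 members by baboon; points are the 5 libraries of each animal coloured by month and bars their median. PA8914 is highest for miR-6858-5p, with a median of 45.2 CPM, and miR-1294-5p and miR-6891-5p lie at 0 in all 5 libraries of PA8835.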

How the data were processed

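The table of whole-number counts per mature microRNA was used as deposited by the authors; it is not normalized. Per the labels' protocols, adapters were ligated, molecular identifiers were added at cDNA synthesis and libraries were sequenced on a NovaSeq X; whether identifiers or reads were counted, and which aligner, database and build were used, is not given in the sources used here. Per the submitters' processing notes, R 4.5.0, edgeR and limma were used. Members and lists were chosen with earlier results of these data known.

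All 40 libraries entered one fit (edgeR 4.0.16, limma 3.58.1, R 4.3.3) with month and baboon as terms, TMM factors, rows kept by filterByExpr grouped by month (minimum count 10, minimum total 15), the quasi-likelihood F test and Benjamini-Hochberg adjustment over 318 rows, threshold 0.05, two-sided. The fit was also run on simulated counts with changes placed at month 15 only and no differences between baboons. The outcome of that run is not reported here. The standard error is the log2 fold change over the root of F. Baboon numbers in the labels pair the libraries. Across microRNAs, deviations from the month means correlated at 0.208 on average within a baboon. Between libraries that differed in both baboon and month the average was -0.029. The 8 libraries of a month are separate animals. No 2 libraries were identical. Members named are the 10 highest by mean CPM, the 3 with the smallest p in each comparison with time, the 5 with the smallest p between baboons, rows beside the limit of 100 counts, 5 sparse rows with the highest single-library count, and rows of shared hairpins; miR-4429, miR-3164-3p, miR-6891-5p and miR-1294-5p were also named as all-or-none rows, and some in groups by origin, after their values were seen. Alternatives were DESeq2 1.42.0, limma-voom, other scalings, filters and covariates, and leaving out each baboon. Shares carry exact Clopper-Pearson intervals for counting error only.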

Additional observations from a re-analysis of the deposited data

Results flagged for a closer look

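Levels of 23 named members at each month, and the members' share of counts and number detected, were screened for a library far from the other 7. Of 123 groups of 8 libraries with any spread, 15 held one, all of them single members. A chance rate of about 1 in 20 does not hold for groups with many 0 values. A row at 0 in 7 libraries and above 0 in the other is always flagged. Some rows were also named because 1 library held a high count. The number flagged can therefore not be set against chance. At month 0, miR-1271-5p was at 2.35 CPM and miR-7853-5p at 3.29 CPM in PA8915, and both were at 0 in the other 7 libraries. At month 3, miR-3120-3p was at 0.0 CPM in PA8873 and miR-3614-5p at 0.0 CPM in PA8835, each below the other 7 libraries. At the same month miR-1277-3p was highest in PA8915, at 4.59 CPM, and miR-4484 was at 9.49 CPM in PA8912 and at 0 in the rest. At month 6, miR-1180-3p was at 19.5 CPM in PA8912, the lowest library by a wide gap, and miR-1271-5p was highest in the same library at 7.23 CPM. miR-10399-5p was at 0.0 CPM in PA8835 at both month 6 and month 9, the lowest library each time. At month 9, the joined row miR-10396a-5p/10396b-5p was at 0.0 CPM in PA8915 and miR-1306-5p at 19.4 CPM in PA8003. At month 15, miR-3614-5p was at 3.24 CPM and miR-6891-5p at 0.0 CPM, both the lowest and both in PA8835, while miR-4454 was at 2.42 CPM in PA8912 and at 0 in the rest.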

How the results depend on the processing

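The count of members called was 0 in months 3, 6 and 9 under every alternative run. At month 15 it was 1 with DESeq2 and 0 to 1 when a baboon was left out, the 1 being without PA8915. With no filter on low counts it was 2 for any month and 1 for late against early months, with all 53 members tested. The fit with no replicate block, which drops the pairing by baboon, called 0 members in each of the 6 comparisons with time. Between baboons the count, 1 as reported, was 2 with DESeq2 size factors, upper-quartile factors, a minimum count of 30, the haemolysis index or the log2 total count as a covariate, or miR-122-5p removed; it was 0 with library totals alone (beside 48.7% of all rows), 7 of 53 with no filter (17.1%), 3 with DESeq2 (42.1%) and 4 with limma-voom (31.8%). Leaving out 1 baboon gave 0 (without PA8914, beside 15.6% of all rows) to 3 (without PA8003 or without PA8873, beside 32.5% and 30.2%). The cause of these shifts was not tested. Leaving out the month 6 library of PA8912, an alternative chosen after seeing the data, left every count of calls as reported. No named member's fold change changed sign in the comparison it was named for, but the members' median at months 3 and 6 did under other scalings, as given with the medians. Low counts kept 23 of 53 members out of the tests, and at month 15 only 4 of 30 intervals stayed within 2-fold.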
